A study of Mus musculus with 4 samples.

Results

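Cells of the muscle wall and the subepithelial myofibroblasts were described in single-cell RNA profiles of the mouse mid-colon, as 1047 of 44356 barcodes that passed the quality filter. A barcode stands for 1 droplet, and its unique molecular identifiers (UMIs) count captured transcripts. Members were chosen by their own counts: Actg2, Myh11 and Des together gave 10 or more UMIs, Notch3, Ptprc and Pecam1 gave 0, and Epcam and Kit gave fewer than 2 each. The study profiled specific-pathogen-free mice aged 7 weeks that drank clean water (control) or water with 3% dextran sulfate sodium (DSS) for 2 days, with 2 libraries per group. The labels name no strain, genotype or sex, and they do not state that libraries of a group came from separate animals, so each p-value rests on variation between libraries that could be purely technical. The libraries are named control 1, control 2, DSS 1 and DSS 2, and series of 4 values follow this order. The comparison addresses what the first days of DSS, a polysaccharide that injures the colonic lining, do to these cells.

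Visceral smooth muscle forms the muscularis mucosae and the circular and longitudinal muscle of the colon. It contracts when calcium and calmodulin activate myosin light chain kinase, which lets myosin pull on actin filaments anchored to desmin and dense bodies. Its genes are driven in large part by serum response factor with its partner myocardin, which act on CArG boxes. Myofibroblasts lie under the crypts, carry smooth muscle actin, receive Hedgehog signals from the epithelium, and together with muscularis mucosae cells secrete bone morphogenetic protein (BMP) ligands, BMP inhibitors and Wnt agonists that shape the stem cell niche.

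The CArG box, the DNA element bound by serum response factor, was searched on both strands in RefSeq promoter windows of build GRCm38.p6, each of 300 bases. Of 24 genes searched (muscle genes, Pcp4 and Hhip), 21 were in the table, with 24 windows, and 4 windows of 3 genes (Actc1, Ldb3 and Myl9) held a perfect match. Actg2, Myh11 and Tagln had no window and so could not be searched. The windows of Ldb3 overlap and hold the same match. Over all 32851 windows of that length 535 held one (1.63%). Myl9 encodes the regulatory myosin light chain, and Actc1 encodes cardiac alpha actin, which led 1 of the subsets described below. The 200 bases before the annotated start of each are shown because they carry the match, which is in capitals, with Myl9 at chr2:156775264-156775463 on the plus strand and Actc1 at chr2:114052876-114053075 on the minus strand.
Myl9: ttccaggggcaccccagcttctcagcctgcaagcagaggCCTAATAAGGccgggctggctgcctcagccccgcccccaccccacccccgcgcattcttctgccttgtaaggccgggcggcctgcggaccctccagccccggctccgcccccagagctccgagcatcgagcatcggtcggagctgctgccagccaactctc
Actc1: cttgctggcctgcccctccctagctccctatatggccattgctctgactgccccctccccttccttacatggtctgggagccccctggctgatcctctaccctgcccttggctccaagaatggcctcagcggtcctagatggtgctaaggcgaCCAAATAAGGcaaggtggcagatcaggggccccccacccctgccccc
The Hhip and Ptch1 windows held no TGGGTGGTC, a core recognised by the GLI factors of the Hedgehog pathway, on either strand, and 83 of all windows (0.253%) held it.

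The members numbered 184, 157, 478 and 228 in the 4 libraries, and their summed depth was 924090, 758834, 3309145 and 1223955 UMIs. They made up 1.97% of the kept barcodes of control 1 (exact Clopper-Pearson 95% interval 1.70 to 2.28), 1.46% of control 2 (1.24 to 1.71), 3.97% of DSS 1 (3.63 to 4.34) and 1.86% of DSS 2 (1.63 to 2.12). These intervals cover counting error only. DSS 1 lay above both controls and DSS 2 lay between them. The mean share was 1.72% ± 0.363 (SD, n = 2) in control and 2.92% ± 1.49 in DSS, a difference of 1.2 percentage points (exact two-sided permutation p = 0.667, where 2 libraries against 2 cannot give a p below 0.333). The gate counts raw UMIs, so it admits more barcodes where depth is higher: the median depth of members was 4430.5, 4217, 6036.5 and 4902.5 UMIs. With the added demand that the 3 genes made up at least 0.5% of a barcode's UMIs, the shares were 1.41%, 1.35%, 2.74% and 1.15%. Members with Pcp4 made up 0.215%, 0.0930%, 0.407% and 0.408% of the kept barcodes. There both DSS libraries lay above both controls, with a difference of 0.254 percentage points (exact two-sided permutation p = 0.333, the smallest possible). Pcp4 was detected in 56.25% of the 144 barcodes of subset 3 and in 88.6% of the 44 barcodes of subset 7, both described below. Subset 3 carried 6 visceral smooth muscle markers and 5 plasma cell markers. Subset 7 also carried markers of another cell type, interstitial cells of Cajal.

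Libraries differed in ways that the treatment does not label. DSS 1 held 478 of the members and stood apart in Gm42418, a gene model that collects ribosomal RNA reads and was picked after its values were seen, at 19356, 22030, 96025 and 12034 counts per 1000000 UMIs of the set (CPM). The same order held in all kept barcodes, at 9112, 18241, 69923 and 7219 CPM. Plasma cell markers, of which Mzb1 was at 0 and the other 7 were detected, summed to 392, 4152, 12880 and 3766 CPM in members, against 9053, 28433, 154060 and 33158 in all kept barcodes. Between 36 and 52 barcode sequences were shared by pairs of libraries. Of the members, 1, 5, 6 and 7 were predicted doublets and were kept.

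Myh11, the smooth muscle myosin heavy chain, was seen in all 1047 members. Actg2, the enteric smooth muscle actin (chr6:83512905-83536265 in GRCm38), was seen in 973 members and Des, the intermediate filament desmin, in 739, while 685 members held all 3. In the members Actg2 stood at 6571, 2592, 4125 and 4731 CPM, Myh11 at 4416, 7658, 6305 and 5789 CPM, and Des at 4768, 1902, 3641 and 3262 CPM. Control 1 was highest for Actg2 and Des and lowest for Myh11, and control 2 the reverse, so that the DSS libraries fell between the controls for all of them. The gate chose members by these genes, so their levels are partly set by it and are not read as results. Just inside the limit, at 10 to 12 gate UMIs, were 93 members with Acta2 at 4163 CPM and the fibroblast gene Dcn at 1185 CPM. Just outside, at 7 to 9 gate UMIs, were 109 barcodes with Acta2 at 2839 CPM and Dcn at 1971 CPM. The 199 members with 100 or more gate UMIs had Acta2 at 14984 CPM and Dcn at 244 CPM.

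The named markers split the members. Pcp4, which encodes a calmodulin-binding peptide, was detected in 129 members (12.3%) and in 28.3% of the 750 barcodes with Kit and Ano1, which mark interstitial cells of Cajal, the pacemaker cells of the gut. Its share was 0.635% in immune barcodes (median depth 3664 UMIs, against 5199 in members). Hhip, the decoy receptor that binds Hedgehog ligands and a marker of myofibroblasts, was detected in 481 members (45.9%), against 0.850% of 941 Notch3-positive mural barcodes at a median of 5287 UMIs, 9.11% of 5678 Pdgfra-positive fibroblast barcodes and 0.671% of immune barcodes. In all, 2 members held both Pcp4 and Hhip. Of the 481 members with Hhip, 51.6% had Des, 0.832% had the muscarinic receptor gene Chrm2 and 78.0% had the Hedgehog receptor gene Ptch1. Of the 566 members without Hhip, 86.7% had Des, 27.7% had Chrm2 and 32.3% had Ptch1. Des is a gate gene, so its shares are partly set by the gate and are not read as a result. The median depth was 4782 UMIs with Hhip and 5848.5 without.

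The 15 genes with the largest ratio of mean CPM in members to the highest of mural, fibroblast and Kit-positive barcodes were taken. They are described without a test because the gate chose the cells. They included Rims1 (119 CPM in members, 1.25 in the highest other set), Ckm, the muscle creatine kinase (71.9 against 2.01), Hhip (1009 against 48.3), Cnn1, the actin-binding calponin (2953 against 294), Bdkrb2, a bradykinin receptor (190 against 19.4), Chrm2 (80.9 against 10.8), Agt, angiotensinogen (127 against 21.7), and Id4 (254 against 44.1). The lowest member library lay above the highest library of these other sets for all 15, which the ranking by ratio favours. The Kit-positive set held 17 barcodes in control 2, where its Hhip was 184 CPM against 2.02 to 5.24 in its other libraries. Acta2 and Tagln did not separate members from mural cells, at 9940 ± 3377 and 12259 ± 5272 CPM (SD, n = 4 libraries) in members and at 10299 and 8514 CPM in the mural set.

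Clustering of the members without the gate genes gave 10 subsets, numbered 0 to 9 by size. Their leading genes describe them and are not results, and the clusters follow libraries as well as cell type. Subset 2 held 0, 70, 1 and 77 barcodes and subset 5 held 0, 17, 0 and 40, so that nearly all came from the libraries numbered 2. Subset 8 held 39 barcodes, all of control 1, and subset 6 held 31, 1, 15 and 0. Subset 0 held 4, 29, 212 and 20, and subset 1 held 34, 14, 144 and 10. Subset 3, with 20, 17, 60 and 47, and subset 7, with 10, 1, 16 and 17, were spread over more libraries. No subset had 30 barcodes in each library, so none was tested between treatments.

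**Figure D1:**
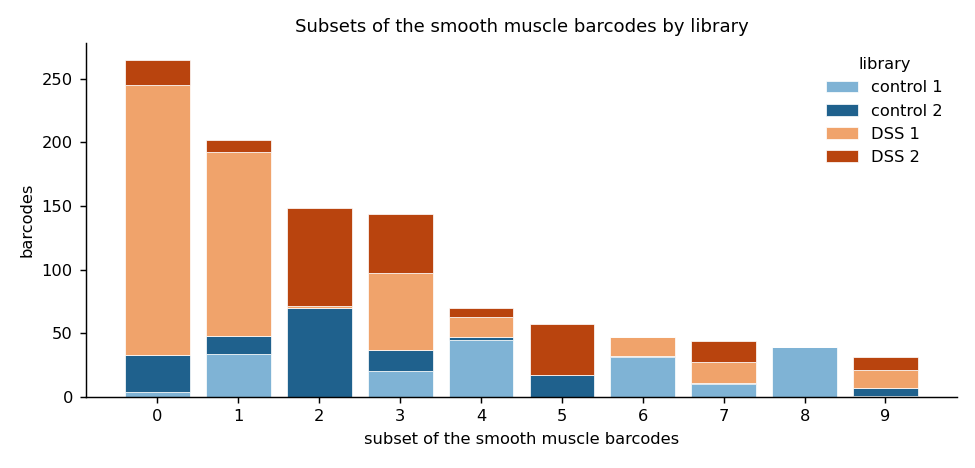
Number of smooth muscle barcodes in each of the 10 subsets (bars, stacked by library). Subset 0 held 212 barcodes of DSS 1 among its 265, subset 8 came from control 1 alone, and subset 2 came from control 2 and DSS 2 but for 1 barcode.

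Subsets 0, 2 and 8, with 43, 99, 213 and 97 barcodes together, carried Hedgehog and BMP genes, with low levels of the gate gene Des. Hhip stood at 1296 CPM in subset 0, 2493 in subset 2 and 4147 in subset 8, and at 0 in subsets 4, 5, 6 and 7. Ptch1, whose transcription Hedgehog signalling raises, stood at 343, 502 and 1109 CPM in the same order, and Des at 164, 195 and 158 CPM. Leading genes were Thbd, Snai2 and Lamb1 in subset 0, Actc1, Bdkrb2, Runx1 and the neurotrophic factor Gdnf in subset 2, and Rbp4 and Ntf3 in subset 8. The BMP ligand Bmp5 stood at 231, 273 and 178 CPM, against 49.5 or less in subsets 1 and 3 to 7. Nrg1, which encodes an epidermal growth factor family ligand for the crypt, stood at 176, 259 and 106 CPM, and at 7.2 or less in subsets 1 and 3 to 7. Of 6 myofibroblast markers outside the gate, Hhip and Nkx2-3 passed in subsets 0 and 8, short of the 3 that a name needed. In subset 2 Hhip alone passed. Npnt, another of the 6, was at 0 in subsets 0, 2 and 8 and at 111 CPM in subset 1. Acta2 and Tagln stood at 5147 and 4876 CPM in subset 0, against 10974 and 14196 in the other members. They stood at 5380 and 5762 CPM in subset 2 and at 10507 and 10685 CPM in subset 8. Subset 0 also carried 3 fibroblast markers, and subset 2 carried 5 epithelial ones.

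Subset 1 was high in secreted niche signals, with the Wnt agonist Rspo3 at 602 CPM (62.5 in the other members), the ligand Wnt2b at 58.1, and the BMP inhibitors Grem1 at 1158 and Chrdl1 at 342 CPM. Grem1 was also at 798 CPM in subset 6, 568 in subset 9 and 468 in subset 3, and was detected in 87.2% of subset 6 and 80.7% of subset 1. Within subset 1 it stood at 1097, 1189, 1153 and 1447 CPM, and Rspo3 was at 608, 391, 611 and 698 CPM. For Rspo3 control 1 and DSS 1 were nearly equal, and DSS 2 had 10 barcodes and control 2 had 14, so no separation is read. For Grem1 the groups overlapped. Subset 1 also led in Chil1, Adora1, an adenosine receptor, and Ptger1, a prostaglandin E2 receptor, and kept Des at 3067 CPM with Hhip at 170 CPM.

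Subsets 3 and 6 carried high contractile levels. In subset 3 Des, a gate gene, was 10617 CPM, Synm, which encodes the desmin partner synemin, 2099 CPM, Cnn1 7716 CPM and Ckm 329 CPM (14.2 in the other members). It carried 6 of the 9 visceral smooth muscle markers outside the gate (Pcp4, Cnn1, Smtn, Synpo2, Chrm2 and Synm), together with 5 plasma cell markers, and its leading genes were Cacna1e, a calcium channel subunit, Angptl7, Prune2, Bmp3, Ckm and the immunoglobulin gene Iglc2 (6010 CPM, 210 in the other members). Because an immunoglobulin gene was among its first 10 genes it is called by its number. Synm varied little there, at 1859, 1979, 2222 and 2005 CPM, and Ckm was at 368, 259, 292 and 404 CPM. Subset 6 had Des at 9884 and Cnn1 at 9249 CPM, Tagln at 27122 CPM (20047 in subset 3), Acta2 at 14852 CPM (13496 in subset 3 and 17964 in subset 4) and Chrm2 at 329 CPM in 85.1% of its barcodes. It carried 3 visceral smooth muscle and 4 mural markers and led in Htr2b, a serotonin receptor, Galr2, a galanin receptor, and Glp2r.

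The other subsets went against the label in part. Subset 7 had Pcp4 at 1367 CPM and Cckar, the cholecystokinin receptor, at 705 CPM, and led in the gap junction gene Gja1 at 905 CPM (5.6 in the other members). It carried 3 visceral smooth muscle markers and 4 markers of interstitial cells of Cajal (Ano1, Etv1, Gja1 and Edn3), with Ano1 at 558 CPM. Subsets 4 and 5 each carried the same 7 of 11 mural markers outside the gate (Rgs4, Pdgfrb, Cspg4, Ndufa4l2, Mcam, Heyl and Cox4i2), with the purinergic receptor gene P2rx1 at 358 and 319 CPM and no Hhip. Rergl and Gja4 led subset 4, and Adra1a, an adrenergic receptor gene, led subset 5. Subset 9 carried 11 of 12 fibroblast markers, with Dcn at 6517 CPM, and 12 of its 31 barcodes were predicted doublets. The subsets are called by their numbers throughout, whatever their marker counts.

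**Figure D2:**
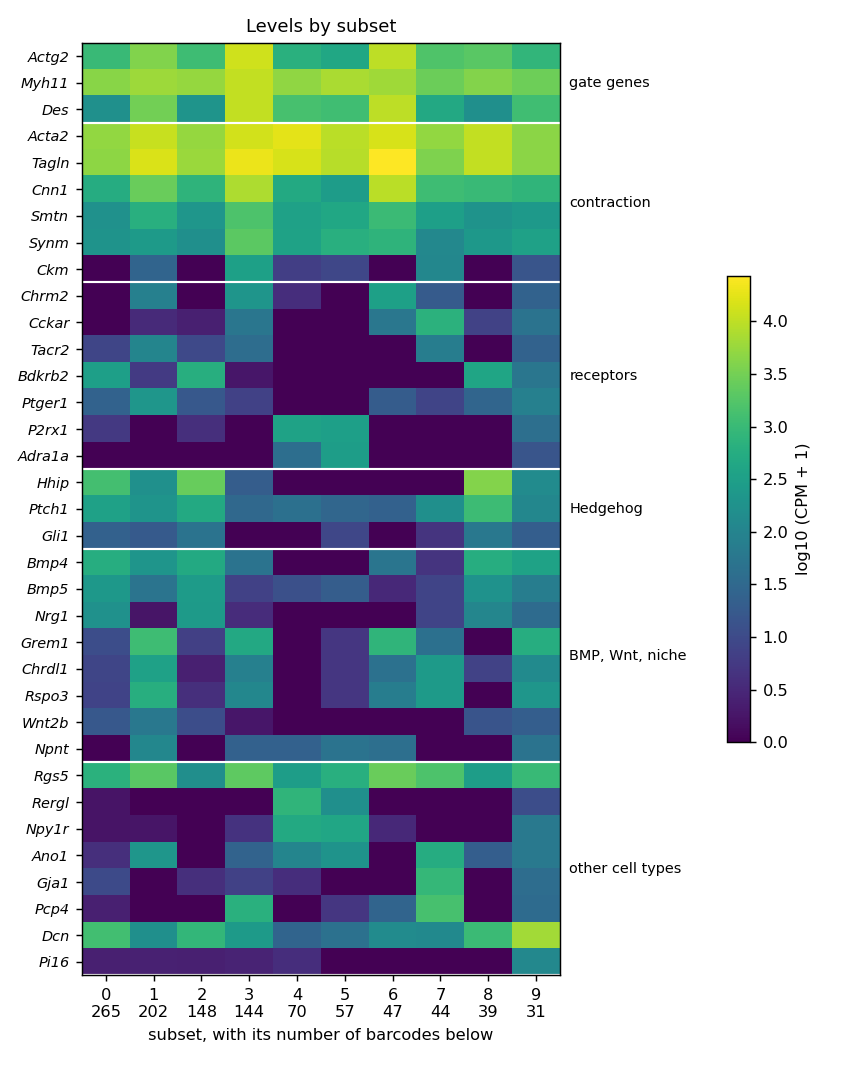
Levels in the 10 subsets as log10 (CPM + 1), with genes in rows grouped by role and the number of barcodes below each subset. Hhip, Bdkrb2, Bmp5 and Nrg1 mark subsets 0, 2 and 8, Rspo3 is highest in subset 1, Grem1 is high in subsets 1 and 6, Des and Cnn1 are highest in subsets 3 and 6, P2rx1 in subsets 4 and 5, and Dcn in subset 9.

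Between treatments, UMIs were summed over members per library and fitted with the quasi-likelihood test of edgeR. At an adjusted p (Benjamini-Hochberg) under 0.05, 0 of 9316 genes (0%) were called, 128 had an unadjusted p under 0.05, and the smallest adjusted p was 0.257, for Spink4. DESeq2 called 3 genes, all lower in DSS: Spink4, Agr2 and Muc2, which belong to goblet cells of the epithelium. Leaving out control 1 gave 1 call (Spink4), leaving out DSS 1 gave 7 (Cxcl10, Serpina3n and Iigp1 higher, 4 lower) and leaving out DSS 2 gave 6 (5 higher, 4 of them immunoglobulin genes). Both DSS libraries lay above both controls for 870 genes (9.34%) and below them for 966 (10.4%), and the median log2 fold change over all genes was -0.01. The values below are therefore levels with their errors, and none is a called difference in this fit. Without the filter on low counts, Serpina3n, Cxcl10, Iigp1, Mmp2, Hhip and 8 of the epithelial genes named below were among 30 genes called.

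Over all members the contractile machinery showed no shared shift beyond the spread of the controls. Of 16 thin filament genes 1 lay above both controls in both DSS libraries and 2 below, against 9.34% and 10.4% of all genes. Their median log2 fold change was -0.17. The smooth muscle actin gene Acta2 stood at 14850, 7786, 9472 and 7651 CPM (log2 fold change -0.41, SE 0.62). Its controls were far apart, and the DSS libraries lay near control 2. Tagln, which encodes transgelin, stood at 19726, 7949, 12105 and 9256 CPM, and Tpm2, a tropomyosin gene, at 11062, 4955, 6834 and 7330 CPM. For both, control 1 was the highest library and control 2 the lowest. The median of the thin filament list was 0.23 without control 1 and -0.38 without control 2. Synm was the gene above, at 527, 579, 624 and 713 CPM (0.29, SE 0.39), and Pdlim3 and Actn1, of the Z-disc-like dense bodies, lay below. None of 13 thick filament and myosin light chain genes had groups apart (median -0.17, and 0.21 without control 1). Mylk, the myosin light chain kinase, stood at 3141, 2595, 3090 and 2954 CPM, a narrow span. Pooled over subsets 0, 2 and 8, without a test, both DSS libraries lay below both controls for Acta2, Tagln, Tpm2 and Mylk. Acta2 stood there at 10210, 7141, 4852 and 4330 CPM and Tagln at 10431, 6503, 4606 and 5313 CPM. For Smtn the groups overlapped in that pool. The pool differed in make-up between libraries: subset 8 gave 39 of 43 barcodes of control 1, and subset 2 gave 70 of 99 of control 2. Subset 0 gave 212 of 213 barcodes of DSS 1, and subset 2 gave 77 of 97 of DSS 2. Acta2 was at 10507 CPM in subset 8, 5147 in subset 0 and 5380 in subset 2. The part of this make-up was not tested, and the share of all genes below in the pool was not counted. In subsets 1, 3 and 6 the groups overlapped for Tagln and for Acta2, at 15223, 10206, 12571 and 12424 CPM.

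Of 18 calcium and channel genes 1 lay above and 0 below (median -0.14, and 0.12 without control 1). That gene was Ryr2, the ryanodine receptor that releases calcium from the sarcoplasmic reticulum, at 31.4, 46.1, 64.4 and 58.8 CPM (0.71, SE 0.35, unadjusted p = 0.0746 in edgeR). Pln, the phospholamban that restrains the calcium pump, stood at 720, 154, 118 and 466 CPM and had overlapping groups. Of 18 receptor genes 1 lay above and 2 below (median -0.13). For the channel and receptor lists the background was 9.34% of all genes above and 10.4% below. Agtr1a, the angiotensin II receptor, stood at 17.3, 13.2, 4.8 and 3.3 CPM (-1.80, SE 0.60, unadjusted p = 0.0172 in edgeR). Chrm2 stood at 113, 77.8, 80.1 and 53.1 CPM (-0.49, SE 0.42), with DSS 1 inside the control range. Tacr2, the neurokinin A receptor, lay above, at 24.9, 18.4, 44.4 and 27.0 CPM (0.76, SE 0.45). Cckar spanned 10.5 CPM in control 2 to 119 in DSS 2.

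Among 28 attachment and basement membrane genes 0 lay above and 5 below (Itga8, Cav1, Itga7, Itga1 and Itga5), against a background of 10.4% of genes below, and their median was -0.10 (0.17 without control 2). The largest of these 5 differences was that of Itga7, an integrin chain of muscle that binds laminin, at 55.2, 56.7, 39.6 and 53.1 CPM (-0.28, SE 0.33). Of 18 transcription regulators 1 lay above and 2 below (median -0.09, and 0.08 without DSS 1). Over all genes 9.34% lay above and 10.4% below. Myocd, which encodes myocardin, stood at 163, 265, 137 and 154 CPM (-0.52, SE 0.36), and Nkx2-3, a homeobox gene of gut mesenchyme, at 199, 236, 184 and 157 CPM (-0.32, SE 0.36). Tcf21, a factor of mesenchymal progenitors, stood at 97.4, 181, 254 and 275 CPM (0.97, SE 0.39, unadjusted p = 0.0371 in edgeR).

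Of 17 niche and myofibroblast genes 2 lay above and 4 below, against 9.34% and 10.4% of all genes, and 3 of the 4 below belong to the Hedgehog response. The list's median of 0.11 was -0.25 without DSS 1 and 0.29 without DSS 2. Hhip (chr8:79965851-80058006 on the minus strand in GRCm38, overlapping Gm27820) stood at 778, 2604, 426 and 226 CPM. Both DSS libraries lay below both controls, and the controls differed from each other by more than the DSS libraries did. Its log2 fold change was -2.27 (SE 0.66, unadjusted p = 0.00888, adjusted p = 1.00 in edgeR, and 0.0231 to 1.00 over the alternatives, the lowest without the filter on low counts), and leaving out 1 library at a time gave -1.30 without control 2 to -2.96 without DSS 1. Ptch1 stood at 327, 461, 158 and 163 CPM (-1.26, SE 0.37, unadjusted p = 0.00962 in edgeR), and Gli1, the transcription factor that Hedgehog signalling induces, at 16.2, 52.7, 10.9 and 10.6 CPM (-1.58, SE 0.54). For Ptch1 the DSS libraries were nearly equal and the groups were apart. Wnt5a was the fourth gene below, at 33.5, 52.7, 32.3 and 27.8 CPM.

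The share of members with Hhip did not separate the groups: 32.1%, 67.5%, 49% and 36%, and 29.9%, 68.2%, 37.1% and 26.2% after thinning each barcode to 2000 UMIs, which left out 20, 9, 14 and 7 barcodes. Levels within the subsets rich in Hhip lay further apart. In subset 0 Hhip was 3576 CPM in control 2, 1101 in DSS 1 and 597 in DSS 2, with too few barcodes in control 1. Subset 2 had 4825 CPM in control 2 and 592 in DSS 2. Pooled over subsets 0, 2 and 8, Hhip was 3971, 4475, 1099 and 593 CPM, a description because these clusters were formed with Hhip among their genes. That pool also differed in make-up between libraries. Among members with Hhip, a split added after the data were seen, Ptch1 stood at 1082, 687, 275 and 320 CPM (-1.53, SE 0.38, adjusted p = 0.519 in edgeR). Gli1 there stood at 56.7, 74.9, 17.4 and 19.7 CPM (-1.79, SE 0.42, adjusted p = 0.426 in edgeR). In members without Hhip, Ptch1 stood at 77.7, 71.8, 75.5 and 84.3 CPM (0.02, SE 0.37), and the difference between these sets was not tested. Fibroblast barcodes showed Gli1 at 23.6, 33.7, 4.2 and 3.0 CPM and Ptch1 at 203, 121, 70.9 and 64.9 CPM, also with both DSS libraries below both controls. The groups overlapped for Ptch1 in mural barcodes, at 42.9, 65.2, 39.2 and 49.4 CPM, and in Kit-positive barcodes, at 167, 184, 76.5 and 202 CPM. For Gli1 in mural barcodes both DSS libraries lay below both controls, at 11.8, 18.8, 3.5 and 8.1 CPM (log2 fold change -1.40).

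**Figure D3:**
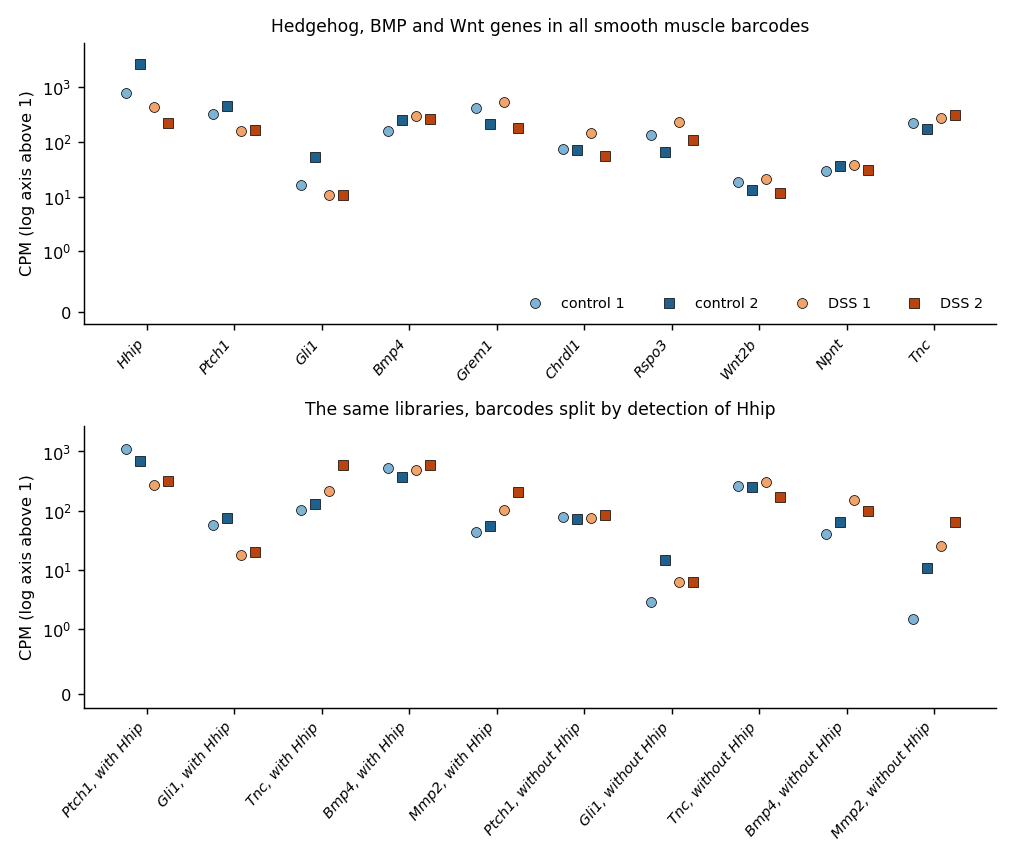
CPM per library (symbols) of Hedgehog, BMP and Wnt genes in all smooth muscle barcodes (top) and of 5 genes in members with and without a UMI of Hhip (bottom), on a log axis above 1. Both DSS libraries lie below both controls for Hhip, Ptch1 and Gli1, and in members without Hhip the 4 values of Ptch1 lie between 71.8 and 84.3 CPM. The split used Hhip itself, so its sets need not hold like cells in both groups.

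BMP and Wnt signals followed no common direction. The BMP ligand gene Bmp4 stood at 161, 254, 293 and 262 CPM (0.46, SE 0.38) and the matrix gene Tnc at 218, 173, 269 and 311 CPM (0.57, SE 0.38), the 2 niche genes above both controls. Among members with Hhip, Tnc stood at 100, 129, 217 and 601 CPM (1.81, SE 0.43, adjusted p = 0.426 in edgeR), and without Hhip at 256, 248, 306 and 167 CPM. Grem1 stood at 418, 216, 539 and 176 CPM, and Rspo3 at 133, 64.6, 234 and 106 CPM. For both, the libraries numbered 1 lay above those numbered 2, which is also the order of the size of subset 1. Npnt, an integrin ligand, stayed between 29.2 and 38.4 CPM.

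Many interferon genes lay above both controls in both DSS libraries. Of 28 interferon-gamma and antigen presentation genes 14 lay above both controls and 0 below, against 9.34% of all genes above, and the list's median was 0.62. Of 15 type I interferon genes 6 lay above and 0 below (median 0.62). Without control 2 the medians were 1.02 and 1.37, and without control 1 they were 0.47 and 0.33. Iigp1, an interferon-inducible GTPase, stood at 17.3, 23.7, 43.8 and 156 CPM (2.24, SE 0.59), and Gbp2, a guanylate-binding protein, at 35.7, 72.5, 84.9 and 201 CPM (1.40, SE 0.48). DSS 2 was the highest library for both. Psmb8, a subunit of the immunoproteasome, stood at 11.9, 19.8, 35.1 and 41.7 CPM (1.30, SE 0.39), and Isg15, a ubiquitin-like interferon product, at 9.7, 6.6, 23.3 and 31.0 CPM (1.69, SE 0.46). Their 4 libraries were better separated. Igtp stood at 6.5, 22.4, 31.1 and 56.4 CPM (1.63, SE 0.54) and overlaps Irgm2, so its reads may be shared. Cxcl10, the chemokine that draws T cells, had 0, 3, 78 and 65 UMIs, a ratio of 17.7 between the pooled groups (95% counting interval 5.93 to 86.8). In all kept barcodes too, both DSS libraries lay above both controls for Iigp1, Psmb8, Isg15, Igtp and Cxcl10, with Iigp1 at 9.61, 10.9, 32.0 and 77.4 CPM. Members held Iigp1 and Igtp at 1.85 and 1.71 of their mean level over all kept barcodes. They held Psmb8, Cxcl10 and Isg15 at 0.285, 0.523 and 0.58 of it, with each library lower in members. Psmb8 was at 43.0, 54.2, 166 and 118 CPM in all kept barcodes. The part of RNA from other cells was not tested. The medians were 0.39 for the interferon-gamma list and 0.12 for the type I list without members that held 5 or more UMIs of fibroblast genes. Pooled over subsets 0, 2 and 8, without a test, Iigp1 stood at 18.4, 4.64, 42.7 and 346 CPM. In subsets 1, 3 and 6 the groups overlapped for Iigp1, at 24.5, 74.4, 51.4 and 18.7 CPM, and for Igtp. For Gbp2, Psmb8, Isg15 and Cxcl10 both DSS libraries lay above both controls in subsets 1, 3 and 6.

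Of 19 inflammatory genes 3 lay above and 0 below (median 0.69, and -0.19 without DSS 2). Over all genes 9.34% lay above and 10.4% below. Il1r1, the interleukin-1 receptor, stood at 9.7, 13.2, 31.7 and 40.9 CPM (1.67, SE 0.40, unadjusted p = 0.00326 in edgeR). Its level in all kept barcodes was 15.3, 9.82, 17.2 and 16.5 CPM. Cxcl12 stood at 99.6, 128, 209 and 204 CPM (0.89, SE 0.34), and the neutrophil chemokine gene Cxcl1 at 3.2, 27.7, 27.8 and 88.2 CPM. Serpina3n, a protease inhibitor of the acute phase, had the smallest p of the named genes that lay above, at 2.2, 6.6, 27.5 and 57.2 CPM (3.27, SE 0.60, unadjusted p = 0.000676 in edgeR), and at 21.1, 37.2, 55.1 and 77.6 CPM in all kept barcodes. Its control libraries held 2 and 5 UMIs, which limits the precision of that fold.

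In the list of 31 fibrillar matrix and remodelling genes 8 lay above and 2 below, against 9.34% and 10.4% of all genes. Their median of 0.27 was -0.01 without control 1, 0.76 without control 2, and -0.16 without members that held 5 or more UMIs of fibroblast genes. Mmp2, the gelatinase that cleaves basement membrane collagen, stood at 11.9, 38.2, 57.7 and 112 CPM (1.79, SE 0.52). Col1a1 stood at 258, 427, 484 and 484 CPM (0.54, SE 0.40) and fibronectin, Fn1, at 476, 705, 799 and 1085 CPM (0.69, SE 0.42). Control 1 was the lowest library for each. Fibroblast markers summed to 2625, 5763, 4751 and 5946 CPM in members, with all 12 detected. Of the 12, 5 (Col6a3, Pdgfra, Lum, Col1a1 and Fbln1) lay above both controls in both DSS libraries, against 9.34% of all genes. The part of the fibroblast markers in these values was not tested. Within members with Hhip, Mmp2 stood at 43.6, 54.1, 104 and 209 CPM (1.64, SE 0.40, adjusted p = 0.446 in edgeR). Ccn2, a growth factor response gene, lay below, at 199, 129, 94.9 and 62.9 CPM (-1.03, SE 0.44). The heparanase gene Hpse, at 9.7, 23.7, 42.3 and 52.3 CPM, and the collagen gene Col5a3, at 8.7, 19.8, 37.8 and 44.1 CPM, were also among the 12 genes of smallest p that lay above, with Fam198b and Ptpn23.

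**Figure D4:**
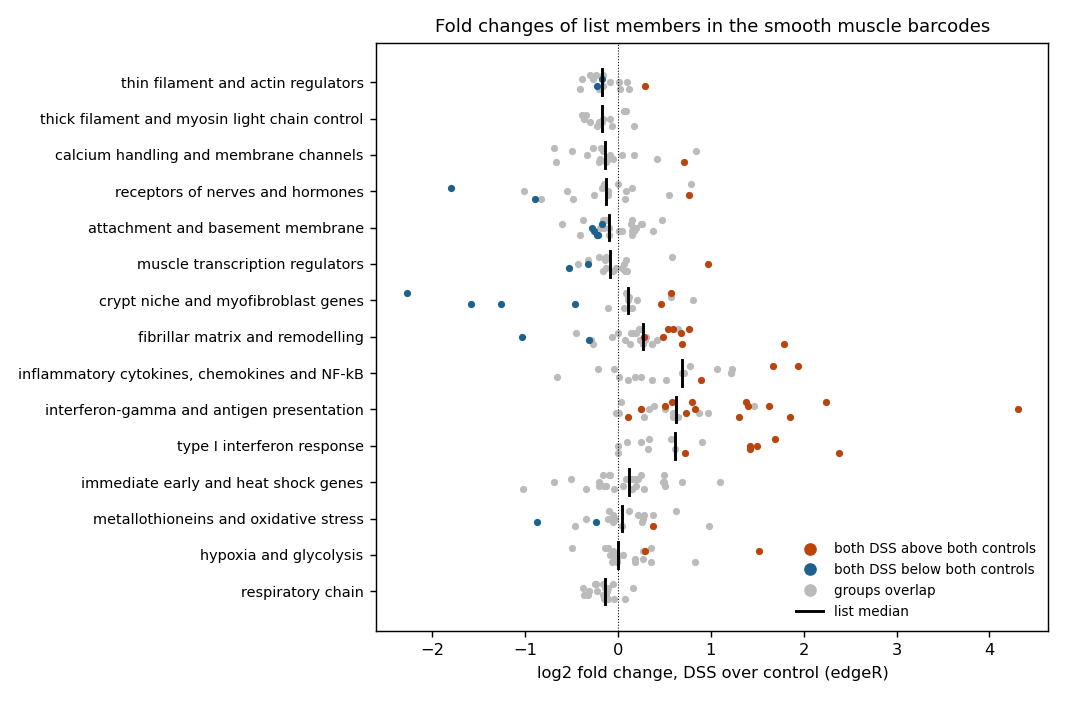
Log2 fold change of DSS over control for each tested gene (points) of 15 lists, with the list median as a bar and colour showing whether the groups of 2 libraries were apart. The interferon lists have medians of 0.62, and 3 Hedgehog genes lie between -2.27 and -1.26 in the niche list.

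None of 29 immediate early and heat shock genes had groups apart, and their median of 0.12 was -0.47 without control 1 and 1.32 without control 2. Fos stood at 982, 4375, 2703 and 3235 CPM and Egr1 at 714, 3914, 1669 and 2638 CPM, lowest in control 1 and highest in control 2 for both. Hspb1, a small heat shock protein of muscle, had the opposite order of the controls, at 4194, 909, 1373 and 1217 CPM. The metallothionein genes Mt1, at 291, 1048, 371 and 1677 CPM, and Mt2, at 22.7, 124, 51.7 and 234 CPM, were higher in the libraries numbered 2 in both groups. Of 19 metallothionein and oxidative stress genes 1 lay above (Sod3) and 2 below (Nqo1 and Fth1). Of 20 respiratory chain genes and 7 proliferation genes none had groups apart, and of 21 hypoxia and glycolysis genes 2 lay above, Ddit4 and Pkm. For all these lists the background was 9.34% of all genes above and 10.4% below.

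Of the 12 genes of smallest p that lay below, 11 are genes of the epithelium, and the other was Hhip. Spink4, a goblet cell protease inhibitor, stood at 214, 377, 23.6 and 23.7 CPM in members (-3.59, SE 0.41, adjusted p = 0.257 in edgeR). The secretory chaperone gene Agr2 stood at 107, 133, 17.2 and 22.9 CPM (-2.58, SE 0.35), and the mucin gene Muc2 at 260, 295, 77.1 and 62.9 CPM (-1.95, SE 0.37). Their groups were far apart. Gpx2, Oit1, Retnlb, Klk1, Cdhr5, Fabp2, Aqp8 and Tspan1 had the same pattern, with log2 fold changes of -2.82 to -1.55. Members held these 11 genes at 0.0375 to 0.0764 of their mean level over all kept barcodes. Mural barcodes held Spink4 at 277, 378, 19.8 and 34.1 CPM and fibroblast barcodes at 239, 317, 27.3 and 34.8 CPM, close to the members library by library. Epithelial markers summed to 877, 1547, 439 and 829 CPM in members, with all 13 outside the gate detected, and to 976, 1646, 460 and 875 CPM in mural barcodes. The part of epithelial RNA in these values was not tested.

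**Figure D5:**
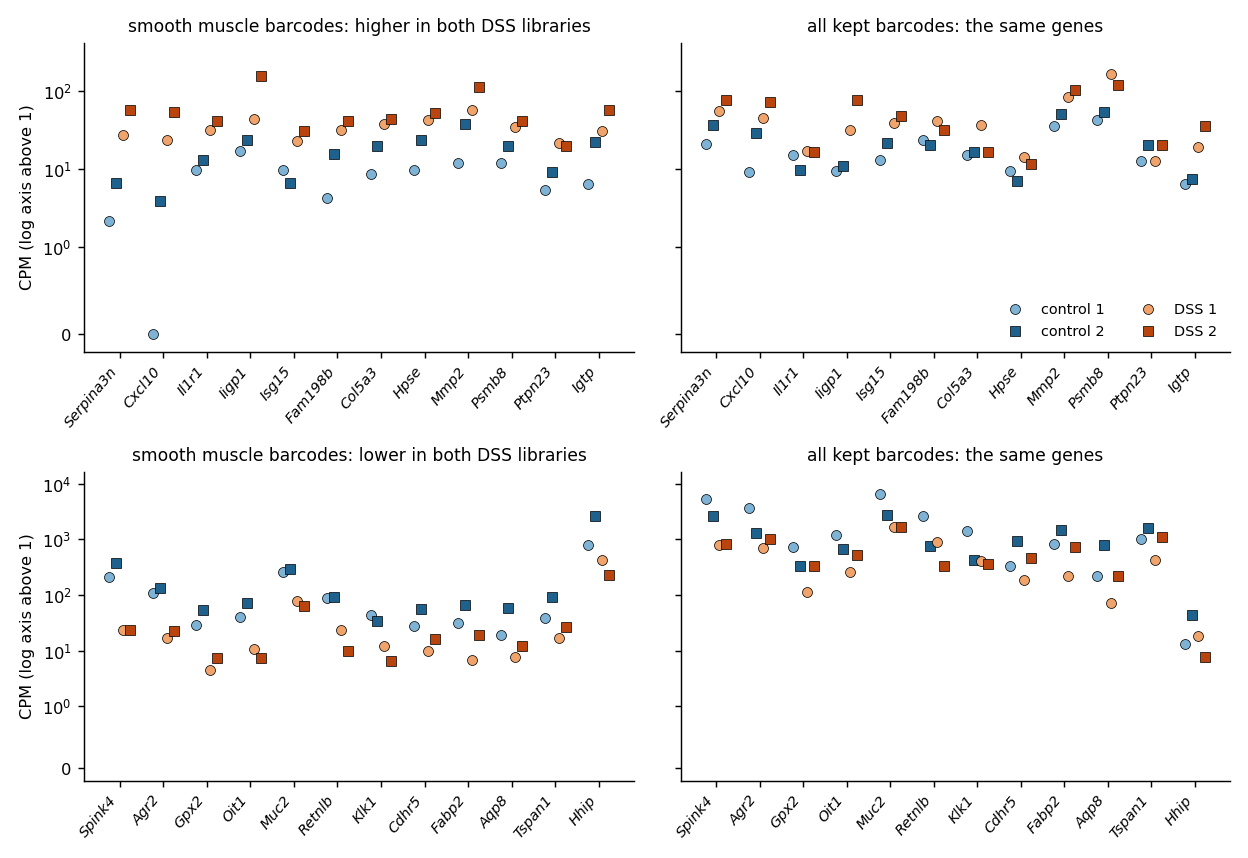
CPM per library of the 12 genes of smallest p on each side in smooth muscle barcodes (left) and in all kept barcodes (right), on a log axis above 1. Spink4 stood at 214 and 377 CPM in control members and at 23.6 and 23.7 in DSS members, and the epithelial genes lie higher in all kept barcodes, unlike Hhip.

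Whether DSS acted differently on members than on their neighbours was tested with an interaction term in edgeR. Against mural barcodes 0 of 10278 genes (0%) passed, 395 had an unadjusted p under 0.05, and the smallest adjusted p was 0.982, while 19 genes passed without DSS 1 and 43 without DSS 2. Against fibroblast barcodes 0 of 13311 genes (0%) passed, 442 had an unadjusted p under 0.05, and the smallest adjusted p was 0.306, while 44 passed without control 1, 26 without DSS 1 and 30 without DSS 2. For Il1r1 the interaction was 1.70 (SE 0.41) against mural barcodes, where its level was 31.1, 32.1, 26.9 and 29.6 CPM, and 1.00 (SE 0.35) against fibroblasts. Fibroblast barcodes held Il1r1 at 50.2, 54.8, 78.8 and 77.4 CPM, also with both DSS libraries above both controls. For Hhip it was -0.50 (SE 0.55) against fibroblasts. For Spink4 it was -0.00 (SE 0.29) against mural barcodes and -0.48 (SE 0.28) against fibroblasts. All of these had an adjusted p of 1.00.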

How the data were processed

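Single-cell RNA libraries of mouse mid-colon were deposited as UMI counts per gene and barcode. Per the submitters' processing notes the authors used Cell Ranger 6.1.1 and build GRCm38, and per the labels' protocols the kit is named as V3 for capture and v2 for library construction. Barcodes with at least 500 UMIs, 250 genes and at most 25% mitochondrial UMIs were kept, and doublets were predicted with Scrublet within each library and kept. Total depth was 101051573 to 109472082 UMIs per library. Intervals cover counting error only.

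UMIs of members were summed per library and tested with edgeR 4.0.16 (TMM, filterByExpr, quasi-likelihood, two-sided, Benjamini-Hochberg over all tested genes), with DESeq2 1.42.0 as an alternative, in R 4.3.3. The scripts were tested on simulated counts. Clusters came from scanpy 1.11.5 and leidenalg 0.10.2 (1000 variable genes without the gate genes, 20 components, 15 neighbours, resolution 0.5). Mural and fibroblast sets needed 2 UMIs of Notch3 or Pdgfra.

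The members and lists were chosen with earlier results of these data known. Genes named are a fixed panel, the 12 of smallest p per direction with groups apart and 20 CPM or more in the higher group (none passed the threshold; mitochondrial and immunoglobulin genes left out), 15 by ratio to other sets, leaders of subsets and list genes, those outside the panel chosen after their values were seen. Promoters are RefSeq's.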

Additional observations from a re-analysis of the deposited data

How the results depend on the processing

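The count of 0 called genes between DSS and control held with library totals, with relative log expression scaling and under every other gate tried. It was 3 with DESeq2, 30 of 20101 genes without a filter on low counts, and 0 to 7 over the fits that leave out 1 library, and the cause was not tested. Among barcodes with Hhip, a setting chosen after seeing the data, it was 2. With the replicate block it was 19 (8 higher, 11 lower), among them Serpina3n, Cxcl10, Iigp1, Mmp2, Spink4, Agr2 and Muc2. The labels do not say that equal numbers share an animal or day, and the differences between libraries 1 and 2 correlated between the groups with r = 0.30 over genes, from 2 pairs. For the interaction with mural barcodes the count was 32 without the filter and 0 to 43 with 1 library left out, and with fibroblast barcodes 51 and 0 to 44. Over named genes and alternatives 364 values kept their side of the threshold, 34 passed it and 0 reversed. The difference in share was 0.324 to 1.2 percentage points over gates whose groups overlapped, and 0.254 for members with Pcp4, whose groups did not. Tests within subsets were not run, since no subset held 30 barcodes in every library at either resolution. The 157 members of control 2 limit the depth.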

Other observations

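Markers of further cell types were detected in the members at low summed levels. Immune markers summed to 92.0, 137, 234 and 79.3 CPM. Endothelial markers summed to 20.6, 18.4, 21.2 and 22.9 CPM, enteric glia markers to 2.16, 13.2, 2.12 and 4.90 CPM with Sox10 and Gfra3 at 0, and enteric neuron markers to 15.1, 38.2, 15.1 and 18.0 CPM with Chat at 0. Mesothelial markers summed to 68.2, 127, 43.2 and 102 CPM, with 5 of 6 at 0. Of the 10 mural markers tested, Rgs5, Rgs4 and Heyl lay below both controls in both DSS libraries, against 10.4% of all genes, with a list median of -0.38.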
